A study of Mus musculus with 7 samples.

Results

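The nuclear-encoded subunits of the mitochondrial respiratory chain and of ATP synthase were examined in bulk RNA-seq data from 7 subcutaneous (s/c) tumors formed by mouse pancreatic ductal adenocarcinoma (PDA) cells. Members were the rows of the expression table whose symbol begins with Nduf followed by a, b, c, s or v and a digit, with Uqcr, with Cox4 to Cox8 or with Atp5, together with Sdha, Sdhb, Sdhc and Sdhd. Of 99 matching rows, 8 named as pseudogenes and the muscle-type subunits Cox6a2 and Cox7a1 were left out, which left 89 members of the 38026 rows. Complex I had 41 members, complex II 4, complex III 9, complex IV 16 and complex V 19. Second rows of Uqcrc1, Ndufs3 and Atp5a1 repeated the values of the first within 1% in every library. Ndufs6b, Cox6c2, Ndufb4c and Ndufa11b are annotated as processed pseudogenes, which can take reads from their parent genes. Without those 7 rows, 82 distinct protein-coding rows remained, with Atp5o present as 2 rows of different value. Ndufa4 was counted with complex I by its name, although its protein is now placed in complex IV, and the acyl carrier subunit Ndufab1 was not matched by the names.

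The tumors grew in untreated C57BL/6 mice and were harvested 2 wk after inoculation. Both groups were formed by cells of the 1242 line, which comes from a KPC mouse, a model of this cancer with a mutant Trp53 allele and a Cre driven by the Pdx1 promoter. Both also carried a lentiviral Cas9 and a guide RNA, so that the groups differed in the guide. The guide was a scrambled one in 4 tumors (sgScramble, replicates 1 to 4) and one against Krt19, which encodes an epithelial keratin, in 3 tumors (sgKRT19, replicates 5, 6 and 8). The study selected edited cells as a population and also made clones from single cells, and the labels do not say which of these formed the tumors. The comparison asked how gene expression differs between tumors of control and Krt19-edited cancer cells. Whole tumors hold cancer cells, stroma, leukocytes and adjacent tissue, all of which express respiratory chain genes.

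The respiratory chain carries electrons from NADH and succinate to oxygen through complexes I to IV in the inner mitochondrial membrane, and complex V, the ATP synthase, uses the resulting proton gradient to make ATP. Complexes I, III, IV and V combine subunits encoded in the nucleus with a smaller number encoded by mitochondrial DNA (mtDNA), whereas complex II is wholly nuclear and is also an enzyme of the tricarboxylic acid (TCA) cycle. Several small subunits of complex IV exist as alternative isoforms, among them forms typical of heart and skeletal muscle.

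Values are normalized read counts, that is, reads per gene divided by a size factor for the library, and errors are SDs over libraries unless called SE. Depth was 40781199 to 44972100 reads per library, and 3 reads, taken as the floor of detection, were worth 2.74 to 3.47 in these units. Krt19 measured 17841 to 27618 in the sgScramble libraries and 1606 to 2470.0 in the sgKRT19 libraries, which is the direction of the labels. Skeletal muscle genes stood apart between the groups and in sgScramble replicate 3. The muscle creatine kinase gene Ckm measured 0.929, 0, 141 and 3.71 in sgScramble replicates 1 to 4 and 1755, 938 and 2653 in sgKRT19 replicates 5, 6 and 8. For the respiratory chain genes themselves, the library that stood apart was sgKRT19 replicate 5, and results are therefore given with and without it.

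Respiratory chain subunits were mostly higher in the sgKRT19 tumors, by modest amounts. Of the 87 members that passed the filter on low values, 39 were called higher and 0 lower (limma, adjusted p under 0.05 over all tested genes), against 17.9% of all 21322 tested genes called higher and 16.0% called lower. By unadjusted p under 0.05, 62 were higher and 0 lower. The edgeR quasi-likelihood test called 38 higher and DESeq2 called 47, and both called 0 lower. The log2 fold change (sgKRT19 over sgScramble, on the log2(value + 1) scale) was above 0 for 85 of 87 members, with a median of 0.47, beside 0.01 for all tested genes. In 48 members every sgKRT19 library lay above every sgScramble library, beside 21.7% of all tested genes, and in 0 every sgKRT19 library lay below, beside 19.3%. The 2 members not tested were Ndufs6b and the testis-type subunit Cox8c, which had 1 read in 1 of the 7 libraries. In bulk tumors, fewer cells of a type and less RNA per cell cannot be told apart.

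The count of called members depended on single libraries and on the scaling. Without sgKRT19 replicate 5, limma called 7 of 87 members (8.05%), beside 12.3% of all tested genes, so the share of members was then no longer above the background. Without sgScramble replicate 2 it called 12 members (13.8%), beside 2629 tested genes called higher, close to the 2624 without sgKRT19 replicate 5. The share of members was thus near the background there too. It called 17 (19.5%) without sgScramble replicate 4, beside 13.4% of all tested genes. Without sgKRT19 replicate 8 it called 23 (26.4%), beside 2849 tested genes. When libraries were scaled by their total reads alone, 15 members were called higher and 0 lower, beside 10.3% and 26.8% of all tested genes. That scaling moved the median over the whole table to −0.21 and that of the members to 0.26. The median of the members was 0.33 without sgKRT19 replicate 5, when 48 members still had both sgKRT19 libraries above all 4 sgScramble libraries (24.9% of all tested genes) and 1 had both below (23.0%). Without sgScramble replicate 4 the groups were likewise apart upward in 48 (22.9%) and downward in 0 (20.2%), and without sgScramble replicate 2 in 48 (22.8%) and 0 (20.3%). In a test against a fold change of 1.5, 1 member, Cox8b, was called higher and 0 lower, beside 3.41% and 2.85% of all tested genes. Cox8b passed the filter on low values only through its sgKRT19 libraries, so its call follows in part from that selection.

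**Figure D1:**
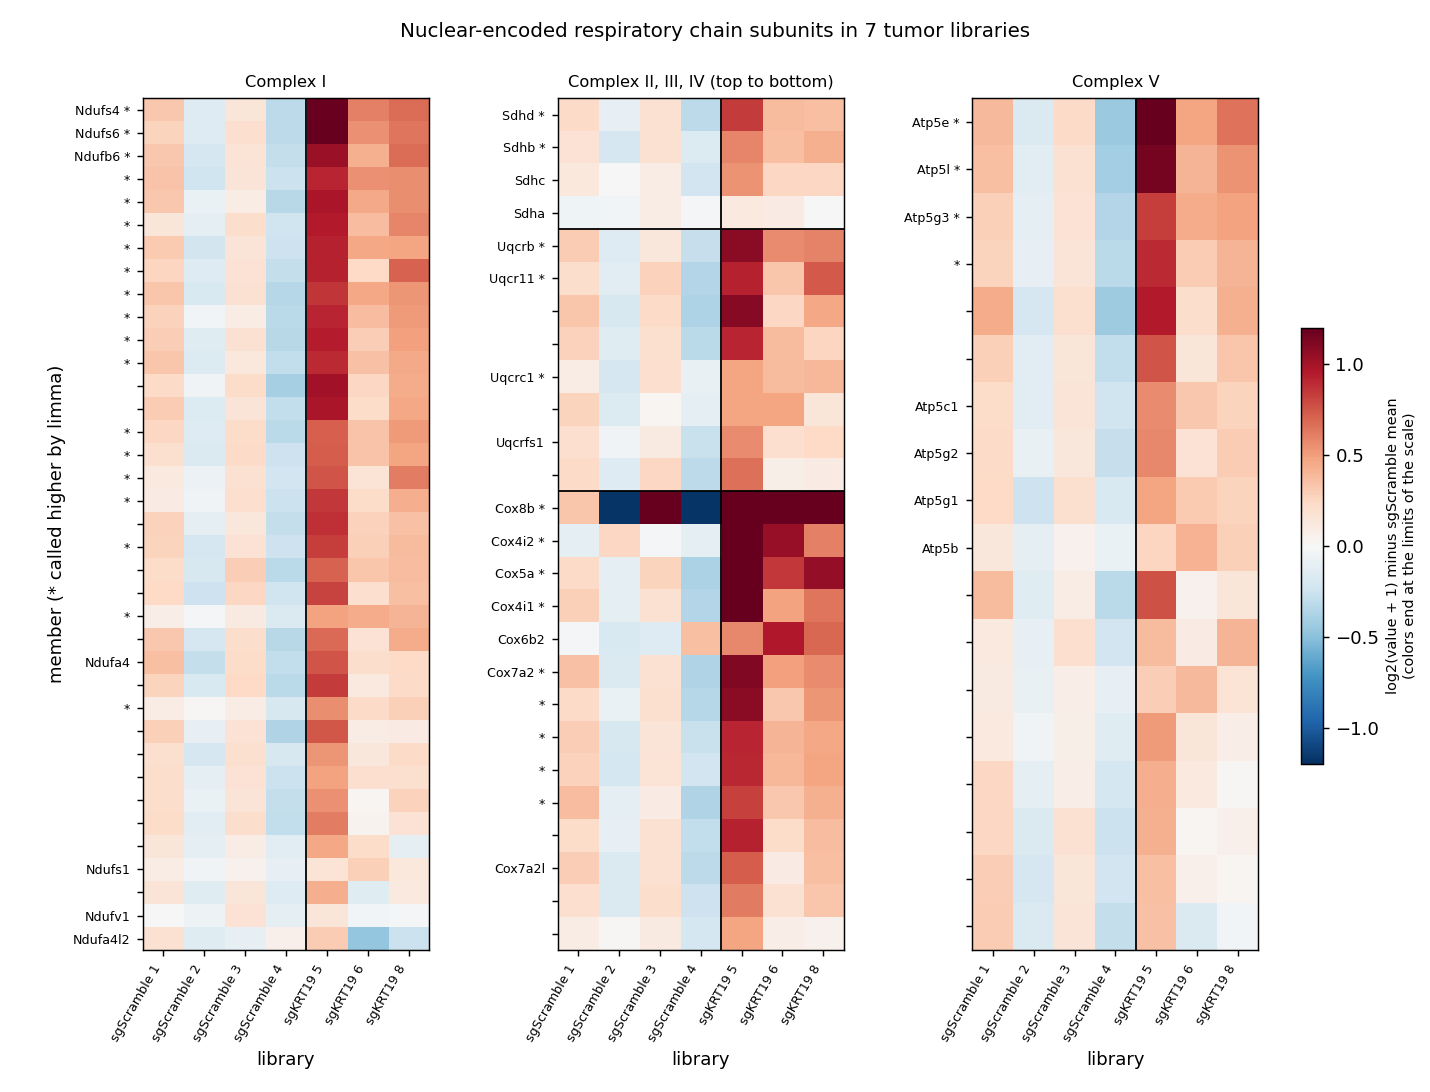
Level of each distinct, tested protein-coding member (rows, by complex, ordered by log2 fold change) in each library (columns), as log2(value + 1) minus the mean of the 4 sgScramble libraries; an asterisk marks members called higher by limma, and names are given for the members chosen by the naming rule. The column of sgKRT19 replicate 5 is the darkest for most members, and sgScramble replicates 1 and 3 lie above replicates 2 and 4.

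The members moved together from library to library, within the groups as well as between them. Over the 81 distinct members tested, the median log2 deviation from the sgScramble mean was 0.25, −0.14, 0.17 and −0.28 in sgScramble replicates 1 to 4 and 0.76, 0.29 and 0.40 in sgKRT19 replicates 5, 6 and 8. The sgKRT19 medians were all above the sgScramble medians, but the gap between the lowest of the former and the highest of the latter was narrow. Replicate 5 of sgKRT19 was the highest of the 7 libraries for 74 of the 81 members, and sgScramble replicate 4 was the lowest for 70. As a share of all reads the groups overlapped: the members held 0.850%, 0.695%, 0.845% and 0.677% in the sgScramble libraries and 0.974%, 0.846% and 0.868% in the sgKRT19 libraries.

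The levels of the members spanned a wide range. Per kilobase of annotated transcript, the mean normalized count in sgScramble tumors was highest for Cox4i1 (17229 ± 3387, n = 4), the largest nuclear-encoded subunit of complex IV, and for Atp5b (14856 ± 1185, n = 4), the catalytic beta subunit of ATP synthase. The SDs of these neighbors in the order overlap. The median per kilobase was 2229.6 for complex I, 2085 for complex II, 3366 for complex III, 5644 for complex IV and 5849.9 for complex V. Of the 81 members, 5 were below 400 per kilobase in sgScramble tumors: Ndufa4l2, Ndufb2, Cox4i2, Cox6b2 and Cox8b.

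**Figure D2:**
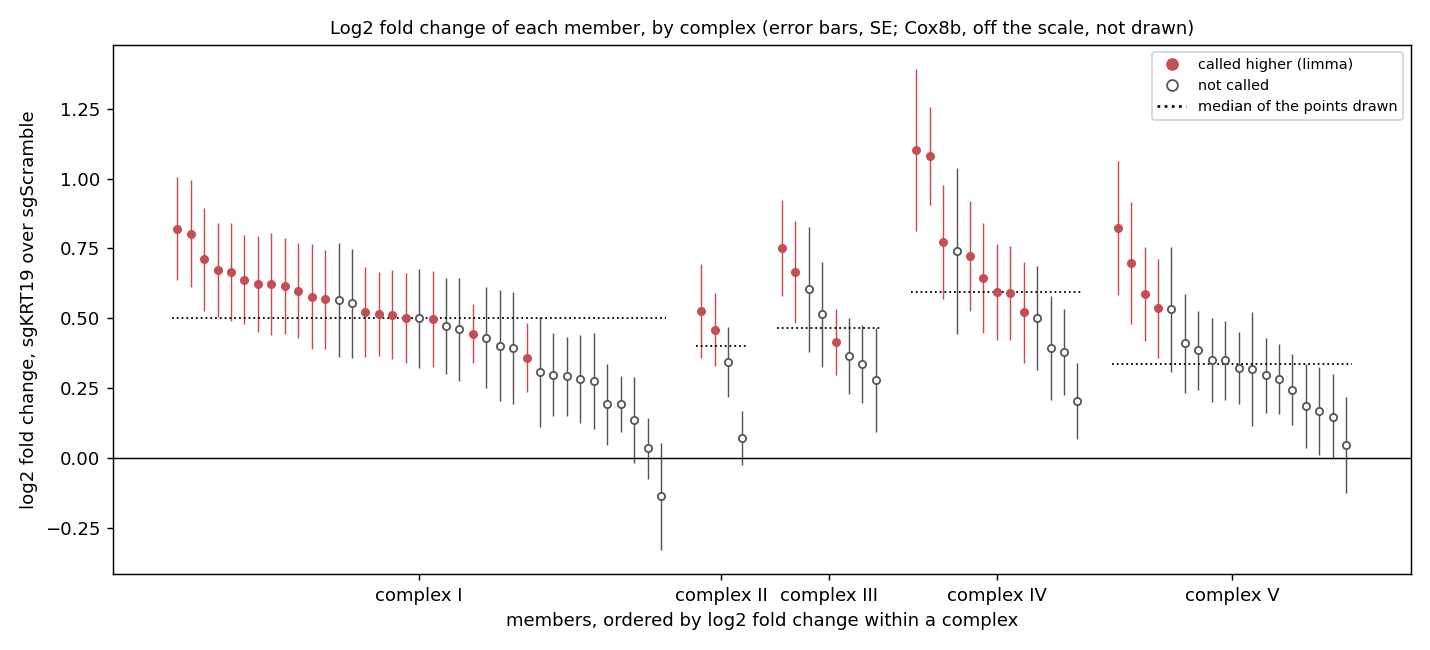
Log2 fold change (sgKRT19 over sgScramble) with its SE for each distinct, tested protein-coding member but Cox8b, grouped by complex and ordered by size; filled points were called higher by limma and dotted lines are medians. Nearly all points lie above 0, the 2 highest are Cox4i2 and Cox5a, and complex V has 4 filled points among 18.

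Complex I, which oxidizes NADH, had 20 of 40 tested members called higher (50%, beside 17.9% of all tested genes) and 0 lower (beside 16.0%). Its median log2 fold change was 0.50. Without sgKRT19 replicate 5 the count was 4 (10%, beside 12.3% of all tested genes). It was 7 without sgScramble replicate 2, and 9 without sgScramble replicate 4 (22.5%, beside 13.4%). Of its 7 core subunits, which hold the flavin and the iron-sulfur clusters, 4 rose, among them Ndufv2. Of the 9 accessory subunits of the matrix arm 4 rose, and of the 19 accessory subunits of the membrane arm 11 rose. Ndufs7, a core subunit, and Ndufa6, a matrix arm accessory subunit, were called although their groups overlapped.

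Ndufs4, an accessory subunit needed for the stability of the NADH-oxidizing part of complex I, showed the largest change in this complex. It measured 2729.9, 1971, 2426 and 1754 in the sgScramble libraries and 4978, 3332 and 3481 in the sgKRT19 libraries. All 3 sgKRT19 values lay above the sgScramble range, with replicate 5 highest. The log2 fold change was 0.82 (SE 0.183, adjusted p = 0.00784, limma), and the call held when any 1 library was left out, with values from 0.64 to 0.93. The zinc-binding subunit Ndufs6 measured 1710.0, 1276, 1638 and 1148 in sgScramble and 3312, 2087 and 2217 in sgKRT19. Again the groups did not overlap, and the log2 fold change was 0.80 (SE 0.191, adjusted p = 0.0104, limma). Ndufb6, in the distal membrane arm, measured 1244 to 1909.7 in sgScramble and 3124, 2043 and 2419.6 in sgKRT19. Its groups were apart and its log2 fold change was 0.71 (SE 0.184, adjusted p = 0.0151, limma), a call that was lost without sgKRT19 replicate 5 (0.55, adjusted p = 0.0603). Of all members, 26 share exon bases with a gene on the opposite strand and 6 with one on the same strand, so their values are uncertain, the former if counting ignored strand. Among the members named by the rule 8 are in the first group, and Ndufb6 has the largest share, 39.0% with Smim27.

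Not all of complex I moved. Ndufv1, the core subunit that binds NADH and flavin, measured 4002, 3843, 4538 and 3732 in sgScramble and 4448, 3934 and 3991 in sgKRT19. The groups overlapped widely, and the log2 fold change was 0.04 (SE 0.108, adjusted p = 0.819, limma), which was −0.18 with libraries scaled by total reads. Ndufs1, the largest core subunit, measured 3029, 2756, 2949 and 2659 in sgScramble and 3186, 3472 and 3107 in sgKRT19. Its sgKRT19 values were all above the sgScramble values by a small margin, and the difference was not called (0.19, SE 0.0998, adjusted p = 0.156, limma). It was −0.02 with libraries scaled by total reads. Ndufa10, a membrane arm subunit, measured 2279.6 to 2776 in sgScramble and 3595, 3503 and 3409 in sgKRT19. Its 3 sgKRT19 libraries were close together, and its log2 fold change of 0.45 (SE 0.104, adjusted p = 0.00961, limma) kept its call without any 1 library.

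In complex II, succinate dehydrogenase, 2 of 4 subunits rose (50%, beside 17.9% of all tested genes) and the median log2 fold change was 0.40. Sdha, the flavoprotein that oxidizes succinate, measured 6116, 6184, 6752 and 6281 in sgScramble and 6856, 6761 and 6354 in sgKRT19. These ranges overlapped, and the log2 fold change was 0.07 (SE 0.0977, adjusted p = 0.587, limma), or −0.14 with libraries scaled by total reads. Sdhb, the iron-sulfur subunit, measured 2544, 1962, 2552 and 2013 against 3389, 2889 and 3029, without overlap, and rose by 0.46 (SE 0.13, adjusted p = 0.0217, limma). The membrane anchor Sdhd rose by 0.53 (SE 0.167, adjusted p = 0.0343, limma), from 4318 to 6275 in sgScramble to 6895 to 9578 in sgKRT19. The other anchor, Sdhc, was not called (0.34, SE 0.124, adjusted p = 0.0548, limma), although its 3 sgKRT19 values lay above all sgScramble values. No complex II call remained without sgKRT19 replicate 5, sgScramble replicate 2 or sgScramble replicate 4, when limma called 0 of 4 in each case.

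Complex III passes electrons from ubiquinol to cytochrome c. Of its 9 rows, 4 were called higher (44.4%, beside 17.9% of all tested genes), which are 3 distinct genes since Uqcrc1 counts for 2 rows. The median log2 fold change was 0.42. The count was 1 without sgKRT19 replicate 5 (11.1%, beside 12.3% of all tested genes) and 1 without sgScramble replicate 2. It was 2 without sgScramble replicate 4 (22.2%, beside 13.4%). Uqcrb, a small subunit near the quinone site, measured 2967, 2150.0, 2632 and 1974 in sgScramble and 5099, 3563 and 3637 in sgKRT19. Its groups were apart, its log2 fold change was 0.75 (SE 0.173, adjusted p = 0.0089, limma), and it was the complex III member called without any 1 library. Uqcr11, another small subunit, measured 1625 to 2507 in sgScramble and 2614 to 3926 in sgKRT19, with a difference of 0.66 on the log2 scale (SE 0.182, adjusted p = 0.0191, limma). The core protein Uqcrc1 measured 3419, 2804, 3707 and 3033 in sgScramble and 4469, 4184 and 4244 in sgKRT19, and its log2 fold change was 0.42 (SE 0.117, adjusted p = 0.0215, limma). The Rieske iron-sulfur protein Uqcrfs1 had values that just missed overlap, at 2638 to 3646 against 3655 to 4698, and was not called (0.34, SE 0.14, adjusted p = 0.0862, limma).

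Complex IV, cytochrome c oxidase, had 9 of 15 tested members called higher (60%, beside 17.9% of all tested genes) and 0 called lower (beside 16.0%). Its median was the highest of the 5 complexes (0.60). Whether complexes differ from each other was not tested. Of the 10 ubiquitous subunits 7 rose, and of the 4 tested isoforms and related subunits 2 rose. The count for the complex was 2 without sgKRT19 replicate 5 (13.3%, beside 12.3% of all tested genes), so its share was then near the background. It was 4 without sgScramble replicate 2, and 5 without sgScramble replicate 4 (33.3%, beside 13.4%).

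Cox5a, a matrix-side subunit that joins Cox4i1 early in the assembly of complex IV, was the abundant member that changed most (chromosome 9, 57521274 to 57532426, GRCm38). It measured 3378, 2678, 3472 and 2217 in the sgScramble libraries and 7292, 5201 and 5999.6 in the sgKRT19 libraries. The lowest sgKRT19 library was well above the highest sgScramble library. The means were 2936 ± 596 (n = 4) and 6164 ± 1055 (n = 3), and the log2 fold change was 1.08 (SE 0.175, adjusted p = 0.00148, limma). It was 0.95 to 1.19 when any 1 library was left out, and Cox5a was called in each of those fits and under each scaling, pseudocount and filter tried, but not in the test against a fold change of 1.5 (adjusted p = 0.110, limma). Cox4i1, the ubiquitous form of subunit 4, measured 15842, 11949.7, 14758 and 10171 in sgScramble and 29807, 18110.1 and 20292 in sgKRT19. Its groups were apart, with a difference of 0.77 on the log2 scale (SE 0.204, adjusted p = 0.0163, limma), and its call was lost without sgKRT19 replicate 5 (0.56, adjusted p = 0.0565). Cox7a2, the ubiquitous form of subunit 7a, rose by 0.72 (SE 0.197, adjusted p = 0.0186, limma), from 1811 to 2958 in sgScramble to 3271 to 5010.2 in sgKRT19, also without overlap. The ubiquitous subunit Cox8a measured 5112, 4828, 5177 and 4136 against 6673, 5083 and 4982, with overlap, and was not called (0.21, SE 0.135, adjusted p = 0.257, limma).

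Complex V had 4 of 19 rows called higher (21.1%, beside 17.9% of all tested genes), 0 called lower and the lowest median (0.32). The 4 were Atp5e, the small epsilon subunit of the catalytic F1 part, Atp5l, Atp5j2 and Atp5g3. No call in this complex remained without sgKRT19 replicate 5 or sgScramble replicate 2, and 1 remained without sgScramble replicate 4. Atp5e measured 3688, 2501, 3295 and 2075 in sgScramble and 7192, 3908 and 4419 in sgKRT19. The groups were apart, with sgKRT19 replicate 5 far above the other libraries, and the log2 fold change was 0.82 (SE 0.239, adjusted p = 0.0242, limma). Atp5l, subunit g of the membrane part, measured 5571 to 9469.6 in sgScramble and 16352, 9786 and 10683 in sgKRT19, and rose by 0.70 (SE 0.216, adjusted p = 0.0315, limma).

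Other subunits of the F1 part of ATP synthase showed small differences that limma did not call. DESeq2 called Atp5b too. Atp5b measured 31207, 26310.3 and 29420.5 in sgScramble replicates 1 to 3 and 26921 in replicate 4, against 34057, 38028 and 34614 in sgKRT19. All sgKRT19 libraries were above all sgScramble libraries, and here replicate 5 was the lowest of the 3. The log2 fold change was 0.32 (SE 0.13, adjusted p = 0.0784, limma). The gamma subunit Atp5c1, which forms the central shaft, had 6281 to 8650.3 in sgScramble and 8883 to 10964 in sgKRT19 and was not called either (0.39, SE 0.143, adjusted p = 0.06, limma). In the peripheral stalk, which holds F1 against the membrane part, 0 of 5 rows were called by limma, edgeR or DESeq2 and 0 had an unadjusted p under 0.05. There Atp5h measured 5916, 4265, 5347 and 3939.7 in sgScramble and 6107, 4249 and 4703 in sgKRT19, which overlapped almost fully (0.05, SE 0.171, adjusted p = 0.851, limma). The 3 genes Atp5g1, Atp5g2 and Atp5g3 encode the same mature subunit c of the proton-carrying ring. Their log2 fold changes were 0.35, 0.35 and 0.59, and limma called the last (SE 0.167, adjusted p = 0.0225), while Atp5g1 and Atp5g2 were not called (adjusted p = 0.0784 and 0.0922).

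The members most stable to the choice of libraries were Ndufa10, Ndufb7, Ndufs6, Ndufs4, Uqcrb, Cox5a and Cox8b, the 7 that limma called in all 7 fits with 1 library left out. They were also the only members called without sgKRT19 replicate 5 (8.05%, beside 12.3% of all tested genes). Their share was thus not above the background of that fit. How many of all tested genes were called in all 7 fits was not counted. With libraries scaled by total reads 6 of the 7 members kept the call, and Ndufa10 did not (adjusted p = 0.103, limma). Cox8b was tested only because its sgKRT19 libraries passed the filter on low values. Ndufb7, a membrane arm subunit on the intermembrane space side, measured 2501, 2086, 2616 and 1919 in sgScramble and 4386, 2928 and 3401 in sgKRT19. Its sgKRT19 values were all above the sgScramble range, with a difference of 0.64 on the log2 scale (SE 0.16, adjusted p = 0.0131, limma).

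Alternative subunits are described beside their ubiquitous partners. Cox8b, the muscle and brown fat form of subunit 8, lies on chromosome 7 (140898945 to 140900446, GRCm38) and had the largest change of any member. It measured 1.86, 0, 8.22 and 0 in the sgScramble libraries and 124, 42.0 and 77.7 in the sgKRT19 libraries. Only sgScramble replicate 3, the control library with muscle transcripts, was above the floor, and the sgKRT19 libraries were all far above it. Cox8b met the filter of 10 in 3 or more libraries only through the sgKRT19 libraries, so its call is no independent support. The log2 fold change was 5.05 (SE 0.749, adjusted p = 0.000915, limma), and leaving out any 1 library gave 4.66 to 5.72. The size depends on the pseudocount, at 5.63 with 0.5 and 3.52 with 5, since the control values are near 0. Cox4i2, the form of subunit 4 typical of lung and of low oxygen, was far less abundant than Cox4i1, at 21.4, 27.7, 22.8 and 21.3 in sgScramble and 75.1, 49.0 and 35.7 in sgKRT19. Its groups were apart and its log2 fold change was 1.10 (SE 0.29, adjusted p = 0.0162, limma), which was lost without sgKRT19 replicate 5 (0.83, adjusted p = 0.0658). Cox6b2, a testis-type form, stayed at 9.88 to 14.8 against 17.3 to 23.0 and was not called (0.74, SE 0.298, adjusted p = 0.0779, limma). The supercomplex factor Cox7a2l, which is related to subunit 7a, overlapped between the groups (0.39, SE 0.185, adjusted p = 0.122, limma). Ndufa4l2, a paralog of Ndufa4 that is induced by hypoxia, measured 338, 269, 278 and 311 in sgScramble and 369, 216 and 249 in sgKRT19. The groups overlapped, and at −0.14 (SE 0.192, adjusted p = 0.604, limma) it was the lowest of the members, reaching 0.03 without sgKRT19 replicate 6.

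**Figure D3:**
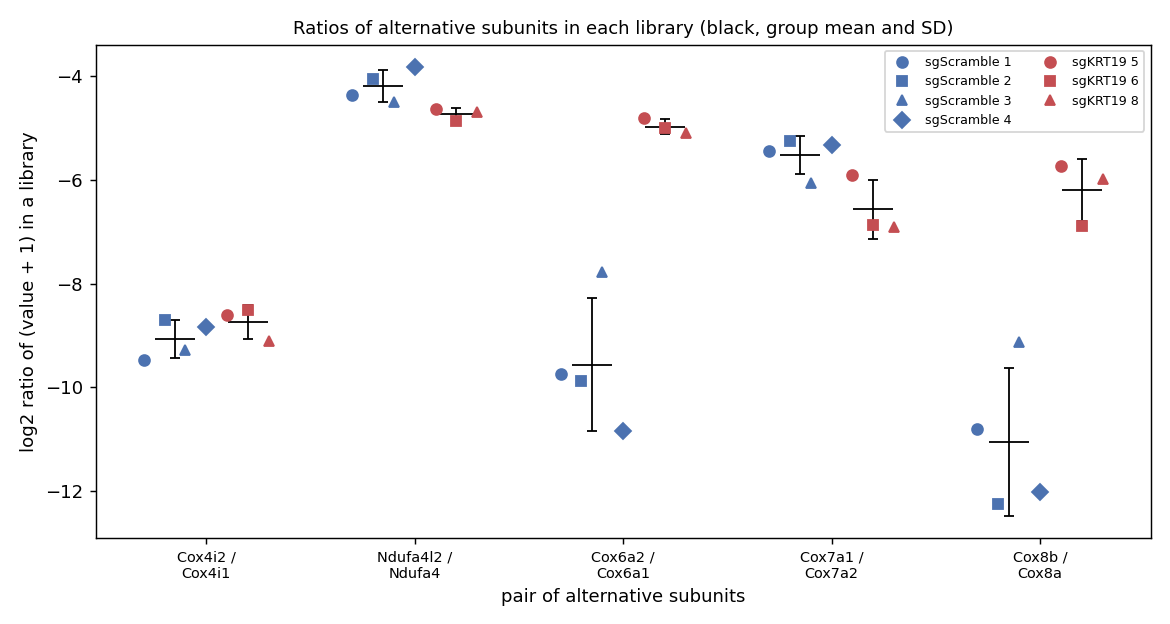
Log2 ratio of an alternative subunit to its ubiquitous partner, (value + 1) each, in each library, with the group mean and SD in black. For Cox8b over Cox8a and Cox6a2 over Cox6a1 all sgKRT19 points lie above all sgScramble points, for Ndufa4l2 over Ndufa4 they lie below, and the other 2 pairs overlap.

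The size factor of a library largely cancels in a ratio of genes within it, so 5 pairs of alternative subunits were also compared as ratios of (value + 1). With 4 against 3 libraries the exact two-sided permutation test cannot give a p below 0.0571, so no pair could pass 0.05. The log2 ratio of Cox8b to Cox8a was −10.81, −12.24, −9.13 and −12.01 in sgScramble and −5.74, −6.89 and −5.98 in sgKRT19, a difference of 4.84 (exact permutation p = 0.0571, adjusted over the 5 pairs 0.0952). Since Cox8b was at 0 in sgScramble replicates 2 and 4, the ratios there are set by the pseudocount, and the difference was 5.42 with 0.5 and 3.32 with 5. The ratio of the muscle-type Cox6a2 to Cox6a1 differed by 4.58 with the same p, and by 3.70 with a pseudocount of 5. Cox6a2 itself, left out of the members, measured 4.64, 2.96, 21.0 and 0.927 in sgScramble and 227, 146 and 152 in sgKRT19. In both pairs sgScramble replicate 3 was the highest control library. The third muscle-type subunit overlapped between the groups. Cox7a1 measured 66.9, 52.4, 38.4 and 43.6 against 82.1, 27.0 and 27.3, and its ratio to Cox7a2 overlapped too (difference −1.04, exact permutation p = 0.114, adjusted 0.143). The ratio of Ndufa4l2 to Ndufa4 was lower in every sgKRT19 library than in any sgScramble library (difference −0.54, exact permutation p = 0.0571, adjusted 0.0952). That of Cox4i2 to Cox4i1 overlapped (0.33, exact permutation p = 0.286, adjusted 0.286). Even in the sgKRT19 tumors, Cox8b reached at most 1.85% of the value of Cox8a and Cox6a2 at most 3.51% of that of Cox6a1.

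Muscle markers also differed between the groups and were set beside the members and the muscle-type isoforms. Of the 29 skeletal muscle markers tested, 27 were called higher and 0 lower, beside 17.9% and 16.0% of all tested genes. The median log2 fold change was 5.57. Markers near 0 in most controls, such as Ckm and Cox6a2, met the filter on low values only through the sgKRT19 libraries. The calls of such markers follow in part from that selection. The list itself includes the muscle-type subunits Cox6a2 and Cox7a1. The median level of the markers relative to the sgScramble mean was −0.50, −0.93, 2.14 and −0.59 in sgScramble replicates 1 to 4 and 5.65, 5.08 and 5.47 in the sgKRT19 libraries. Among the sgKRT19 libraries both the muscle markers and the respiratory chain members were highest in replicate 5 and lowest in replicate 6. Among the controls the muscle markers were highest in sgScramble replicate 3 and the members in sgScramble replicate 1. Without sgScramble replicate 3, the control library with muscle transcripts, 39 members were called, 37 of them shared with the full set of libraries. Brown adipocyte genes were checked because Cox8b is also found there. Ucp1, the defining one, measured at most 1.05 in any library, and of 5 tested markers 2 were called higher, Cox8b itself and Cidea, and 1 lower, Ppargc1a. The part of either cell type in the differences of the ubiquitous subunits or of the muscle-type isoforms was not tested.

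Markers of the other cell types in these tumors moved as follows, beside 17.9% of all tested genes called higher and 16.0% called lower. Of 10 epithelial cancer cell markers 5 rose and 0 fell (median log2 fold change 0.51), and of 11 leukocyte markers 6 rose and 0 fell (0.81), 3 of which are T cell genes, Cd3d, Cd3e and Cd8a. Of 10 fibroblast markers 0 were called by limma (median −0.13), with 0 higher and 1 lower at an unadjusted p under 0.05, and 1 called lower by edgeR and 2 by DESeq2. The median level of epithelial markers was −0.40 to 0.30 in sgScramble and 0.63 to 0.72 in sgKRT19, and that of leukocyte markers −0.27 to 0.30 and 0.77 to 0.98. Both lists were thus higher in the sgKRT19 libraries without replicate 5 standing apart, and their part in the result was not tested.

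**Figure D4:**
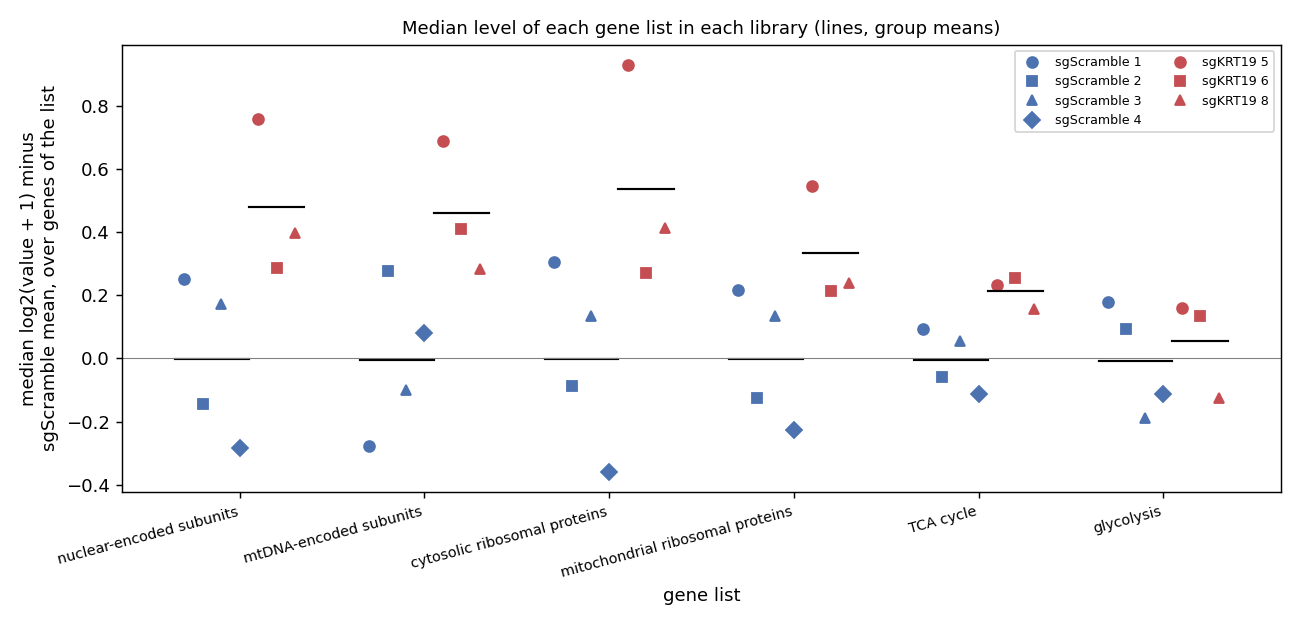
Median of log2(value + 1) minus the sgScramble mean over the genes of 6 lists in each library; horizontal lines are group means. Nuclear-encoded subunits and both sets of ribosomal proteins have sgKRT19 replicate 5 on top and sgScramble replicate 4 at the bottom, while the mtDNA-encoded subunits order the sgScramble libraries differently.

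Other mitochondrial gene lists were compared in the same fit, in which 17.9% of all tested genes were called higher and 16.0% lower. Whether these lists differ from the members was not tested. The 13 subunits encoded by mtDNA had 4 called higher, 0 called lower and a median log2 fold change of 0.44, with mt-Nd3 (0.67, SE 0.169, adjusted p = 0.0132, limma) and mt-Nd1 (0.66, SE 0.188, adjusted p = 0.0222, limma) as the largest changes. Their medians in sgScramble replicates 1 to 4 were −0.28, 0.28, −0.10 and 0.08, with replicate 1 lowest where the nuclear-encoded subunits had it highest, and 0.69, 0.41 and 0.28 in the sgKRT19 libraries. The nuclear and mtDNA-encoded parts of the chain therefore shared the high level in sgKRT19 replicate 5 but not the order of the controls. Factors that assemble the complexes had 9 of 45 called higher and 0 lower (median 0.22), with the largest changes in Uqcc2, a complex III factor (0.84), and Coa6, a copper factor of complex IV (0.64). This share was near the 17.9% of all tested genes, and limma called 2 without sgScramble replicate 2, sgScramble replicate 4 or sgKRT19 replicate 5, 3 without sgKRT19 replicate 8, and 2 higher and 1 lower with total reads. Among electron carriers and enzymes that feed the chain 6 of 21 rose and 1 fell (0.26). Sqor, which passes electrons from sulfide to ubiquinone, rose most (1.31), and Etfdh, which does so from fatty acid oxidation, fell by 0.41. Cycs, which encodes cytochrome c, the carrier between complexes III and IV, measured 5487, 3791, 4742 and 3555 in sgScramble and 8416, 8178 and 7563 in sgKRT19. The sgKRT19 libraries were close together and well above the controls, and the log2 fold change of 0.89 (SE 0.153, adjusted p = 0.00196, limma) held without any 1 library. Of 18 genes of the TCA cycle and its supply 4 rose and 0 fell (0.23), led by the pyruvate carboxylase gene Pcx (0.95) and the citrate synthase gene Cs (0.41). This too was near the 17.9% of all tested genes, and 1 to 4 were called when 1 library was left out (1 without sgKRT19 replicate 6, 2 without sgScramble replicate 2, sgScramble replicate 4 or sgKRT19 replicate 5), with 1 higher and 1 lower with total reads. Of 17 glycolysis rows 0 were called by limma, edgeR or DESeq2, with 2 higher and 0 lower at an unadjusted p under 0.05 (median 0.02).

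Ribosomal protein genes, which also encode short and abundant transcripts, were set beside the members. Of 88 cytosolic ribosomal protein genes 32 were called higher and 0 lower (median log2 fold change 0.52), and of 80 mitochondrial ribosomal protein rows 28 were called higher and 0 lower (0.36). Of all tested genes 17.9% were called higher and 16.0% lower. The largest changes in the cytosolic set were those of the muscle-type Rpl3l (3.18) and of Rps6 (1.21), and in the mitochondrial set those of Mrpl50 (0.92) and Mrps31 (0.83). Within each group their library medians had the order of the respiratory chain members, at 0.30, −0.09, 0.14 and −0.36 in sgScramble and 0.93, 0.27 and 0.41 in sgKRT19 for the cytosolic set. Between the groups both ribosomal sets overlapped, with sgScramble replicate 1 above sgKRT19 replicate 6. The median over all distinct members did not overlap between the groups, and neither did those of complexes II, III and IV. The medians of complex I and complex V did overlap, with sgScramble replicate 1 at 0.252 and 0.258 and sgKRT19 replicate 6 at 0.245 and 0.194. Without sgKRT19 replicate 5 limma called 6 of the 88 and 10 of the 80, beside 12.3% of all tested genes, so neither set then stood clearly above the background.

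Changes within the members were related to transcript length. Over the 81 distinct members, the log2 fold change correlated with the log2 length of the annotated transcript with Pearson's r = −0.34 and Spearman's rho = −0.46, a description across genes of the same libraries, which are not independent. Of the 49 members with transcripts under 1000 bases 25 rose (51.0%, median 0.57), and of the 32 longer ones 12 rose (37.5%, median 0.36). The same split among all protein-coding genes with a mean of at least 100 gave 39.4% of 800 called higher (median 0.41) against 17.8% of 11502 (median −0.01). Short expressed genes in general were thus called higher more often than the table as a whole, at a share below that of the short members. With GC content and length regressed out of each library, 29 members were called higher and 0 lower, beside 19.7% of all genes in that fit, and their median log2 fold change was 0.30. The part of transcript length in the result was not tested.

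**Figure D5:**
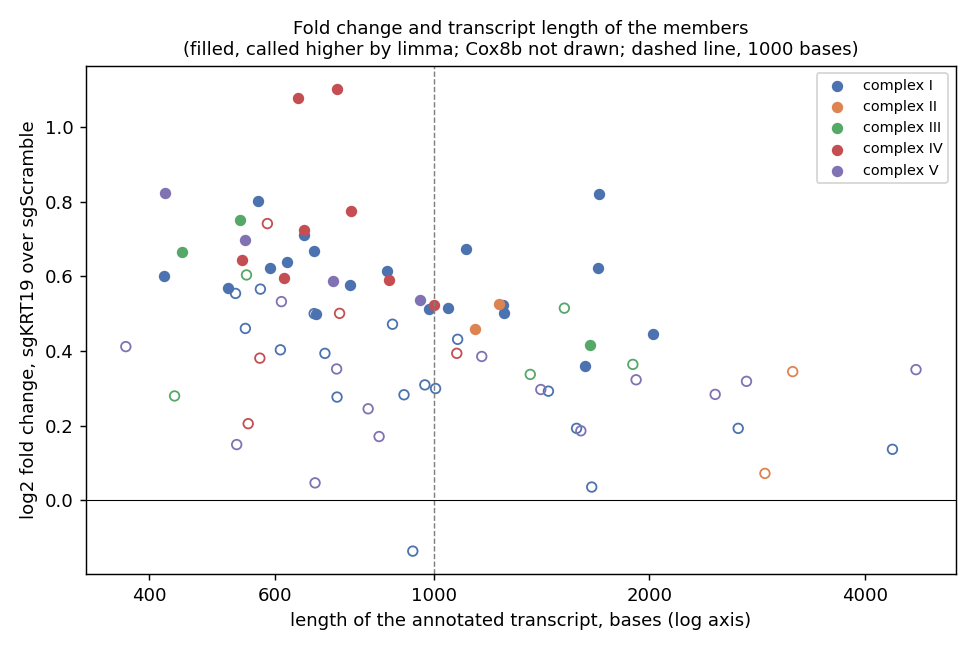
Log2 fold change of each distinct, tested protein-coding member but Cox8b against the length of its annotated transcript in bases (log axis), colored by complex, filled where limma called it higher. Points to the left of the dashed line at 1000 bases reach higher than those to the right, with wide scatter at any length.

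Nuclear genes of the respiratory chain are known to share promoter elements bound by NRF1, by ETS factors such as GABPA and by YY1. RefSeq promoter windows of GRCm38.p6, from 250 bases before to 50 after the start, were matched by symbol for 65 of 81 distinct genes and searched on both strands. The palindromic NRF1 letters, GCGCA followed directly by TGCGC, were in 5 of the 65 (7.69%, beside 1.07% of all genes with windows), the ETS letters CCGGAAG in 17 (26.2%, beside 9.93%) and the YY1 letters AAGATGGC in 9 (13.8%, beside 3.19%). At least 1 of these was in 28 (43.1%, beside 13.4%). The members searched are protein-coding, whereas the comparison set was every gene with a window (27025), without selection by gene type or expression. In 8 of the 9 genes with the YY1 letters, the ATG inside them is the annotated start codon. The myogenic E-box CAGCTG, to which muscle regulators bind, was in 6 (9.23%, beside 18.3%). A match of letters is a description of sequence and not a bound site. The following stretches of 30 bases are shown, with the searched letters in capitals, for the stable members that hold such letters, for 1 gene of subunit c that was not called and for the ubiquitous and muscle-type forms of subunit 8.
Ndufs4 (YY1, minus strand, chr13:114388045-114388074): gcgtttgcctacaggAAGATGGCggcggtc
Ndufs6 (YY1, minus strand, chr13:73328433-73328462): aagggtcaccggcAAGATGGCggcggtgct
Ndufb7 (ETS, plus strand, chr8:83566727-83566756): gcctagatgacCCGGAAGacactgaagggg
Atp5g2 (NRF1, minus strand, chr15:102671070-102671099): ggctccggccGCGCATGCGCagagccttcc
Cox8a (ETS on the opposite strand, minus strand, chr19:7217603-7217632): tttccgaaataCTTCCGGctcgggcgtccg
Cox8b (E-box, minus strand, chr7:140900448-140900477): tgtgacaggagaCAGCTGcagctctccacc
The YY1 letters of Ndufs4 and Ndufs6 begin at bases 36 and 34 of the transcript and cover the start codon. The ETS letters of Ndufb7 begin 20 bases before its start and those of Cox8a 5 bases before, so that the latter span the start. The NRF1 letters of Atp5g2 begin 42 bases and the E-box of Cox8b 19 bases before the start. Members with and without such letters are found among both the called and the uncalled ones: Ndufb7 rose by 0.64 and Cox8a, with the same ETS letters, had 0.21.

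Transcripts of regulators that bind these elements or drive mitochondrial biogenesis were examined next. Of 15 tested genes of this list 0 were called higher by limma, edgeR or DESeq2, 0 were higher at an unadjusted p under 0.05 and 4 were called lower (median log2 fold change −0.10), beside 16.0% of all tested genes. With GC content and length regressed out 1 was called higher and 2 lower, with total reads 0 and 6, and 1 was lower without sgScramble replicate 2 or sgKRT19 replicate 5 and 2 without sgScramble replicate 4. Ppargc1a, a coactivator of mitochondrial biogenesis, measured 128, 148, 205 and 250.4 in sgScramble and 34.7, 49.0 and 49.4 in sgKRT19. Every sgKRT19 library was below every sgScramble library, and the log2 fold change was −1.99 (SE 0.261, adjusted p = 0.000476, limma), from −2.14 to −1.82 when any 1 library was left out. Pprc1, a related coactivator, was lower without overlap (−0.44, SE 0.144, adjusted p = 0.0378, limma), a call that held in 3 of the 7 fits with 1 library left out. Because of these promoter letters Gabpa, Yy1 and Nrf1 were also singled out, after their values were seen. Gabpa measured 1959.9, 2234, 1815 and 2118 in sgScramble and 1318, 1635 and 1544 in sgKRT19, and was lower by the test without overlap (−0.44, SE 0.118, adjusted p = 0.0178, limma). Yy1 measured 5703 to 6233 in sgScramble and 4765 to 4783 in sgKRT19, also without overlap (−0.31, SE 0.0933, adjusted p = 0.0275, limma). The calls of Gabpa and Yy1 held in 5 and 2 of the 7 fits with 1 library left out. Nrf1 was not called (−0.16, SE 0.106, adjusted p = 0.255, limma), but was lower with libraries scaled by total reads (−0.38, adjusted p = 0.0318).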

How the data were processed

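RNA from 7 individual tumors was sequenced. The labels describe polyA RNA, whereas the study's methods name a stranded total RNA kit. The authors deposited read counts per gene divided by a size factor for each library, a signal without negative values, with mm10 named in the submitters' processing notes. The aligner, counter and size factor method are not given in the sources used here. Whole reads were recovered from all values within a tolerance of 0.1.

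Genes reaching 10 in 3 or more libraries were kept, and log2(value + 1) was compared between the 4 sgScramble and 3 sgKRT19 libraries with limma 3.58.1 (trended prior, R 4.3.3), with Benjamini-Hochberg adjustment over all 21322 genes and a threshold of 0.05. Replicates were separate tumors of 1 cell line. Recovered reads were also tested with edgeR 4.0.16 and DESeq2 1.42.0. Other alternatives were scaling by total reads or by TMM, pseudocounts of 0.5 and 5, no filter, a minimum of 100, a test against a fold change of 1.5, regression on GC content and length, and leaving out each library. The fit was also run on simulated data in which genes varied independently. That simulation does not cover libraries in which many genes move together, as the members do here. Tables were handled with pandas 2.3.3 (Python 3.11.15), permutation tests with scipy 1.17.1 and figures with matplotlib 3.10.9. Positions and lengths came from GENCODE annotation of GRCm38, in which 86 of the 89 members were found, and levels per kilobase used the longest principal transcript.

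Named genes were, by rule, the Sdh genes, the 3 called members with the largest change per complex among those with a mean of at least 100 and groups apart, fixed core members, isoforms, subunit c genes, the 2 largest called changes each way in the other lists (lists of cell type markers other than muscle and brown fat are given by counts), and Krt19, Ckm, Cox6a2 and Cox7a1. Ndufa6, Ndufa10, Ndufb7, Ndufs7, Cox8a, Atp5h and Atp5j2 were added after their values were seen. Members and gene lists were chosen with earlier results of these data known. Counts without molecular identifiers are not independent molecules, so the detection floor of 3 reads covers counting error only. Some items are not reported here.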

Additional observations from a re-analysis of the deposited data

Results flagged for a closer look

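In the sgScramble group 60 values were checked for a single library far from the rest, by Dixon's ratio of the gap beside the extreme library to the whole range, at the limit that chance passes in about 1 of 20 groups. Of these 4 passed (6.67%), all of them skeletal muscle transcripts in sgScramble replicate 3, and they are not independent, since 3 are single genes of the list whose median is the other. The median level of the muscle markers there was 2.14 on the log2 scale relative to the sgScramble mean, beside −0.93 to −0.50 in the other sgScramble libraries. Ckm measured 141, beside 0 to 3.71. Acta1, the skeletal muscle actin gene, measured 934, beside 21.4 to 26.9. Myh4, a fast myosin heavy chain gene, measured 199, beside 0 to 0.929. The respiratory chain members did not meet the criterion in that library.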

How the results depend on the processing

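The count of 39 members called higher became 15 with libraries scaled by total reads, 1 in the test against a fold change of 1.5 and 7 to 52 when 1 library was left out, with 0 called lower in each of these. The median log2 fold change of all members was 0.33 to 0.58 when 1 library was left out. Scaling by total reads gave medians of 0.19 for complex II and 0.11 for complex V. Signs reversed for 10 members with total reads, 4 with GC content and length regressed out, 3 without sgKRT19 replicate 5 and 0 or 1 without any other library, all for members that were not called. They included Ndufv1 (−0.18 with total reads, −0.065 with GC content and length regressed out, and −0.020 without sgKRT19 replicate 5, in a range of −0.020 to 0.094 with 1 library left out), Atp5h (−0.17, −0.21 and −0.10 in the same order), Ndufs1 (−0.023) and Sdha (−0.14) with total reads, and Ndufa4l2 (0.026 without sgKRT19 replicate 6, in a range of −0.36 to 0.026). The cause was not tested. TMM scaling, edgeR, DESeq2, both pseudocounts, both filters and the GC content and length regression gave 29 to 47 called members. Without the 7 repeated or pseudogene rows, a choice made after seeing the data, 37 of 81 members were called. The difference in the Cox8b to Cox8a ratio was 4.45 to 5.48 when 1 library was left out and 3.32 to 5.42 with other pseudocounts. No paired analysis was run, since the groups share no replicate numbers and the labels give no pairs of tumors. The study's legend for its RNA-seq heat map calls the control and edited cells paired, without saying which tumors belong together. Of the 39 calls, 32 were lost without sgKRT19 replicate 5, 27 without sgScramble replicate 2 and 22 without sgScramble replicate 4.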
